A study of Mus musculus with 24 samples.

Results

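The genes described here are 37 genes of the spliceosome and of splicing regulation in mouse embryonic stem cells, out of 55487 genes with a row in every count table. They were chosen by name: the Ensembl IDs in the tables were matched to gene symbols, and all 37 were found and passed the filter on low counts. By role they fall into the U2 snRNP (7 genes), U2AF (2), the U5 and tri-snRNP (6), the U1 snRNP (3), the Sm ring (7), SR proteins (8), hnRNP proteins (2) and CLK kinases (2). RNA-seq was done on KH2 cells, an embryonic stem cell line made for doxycycline-controlled transgenes, that carry DUX behind a doxycycline-responsive (TRE) promoter. The 24 libraries form 12 groups of 2, from 6 lines that were either left without DOX or given it for 16 h. WT and DUXBL-KO make up one set; the other, marked pLV2, holds TRIM24-KO, TRIM33-KO and a pair of WT lines called line 1 and line 2. Every group holds the transgene, so an effect of DUX and one of doxycycline itself cannot be told apart here. What pLV2 is, which WT line belongs to which knockout, and how many clones a knockout line came from were not given in the sources used here. The labels do not say that the 2 libraries of a group came from separate cultures, so the p-values below measure only the spread between these libraries, which may be technical.

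Splicing removes introns in 2 chemical steps carried out by small nuclear ribonucleoproteins (snRNPs). The U1 snRNP recognises the 5′ splice site, U2AF the 3′ splice site, and the U2 snRNP, with its SF3a and SF3b complexes, the branch point. The U4/U6.U5 tri-snRNP then joins, and its U5 protein Prpf8 sits at the heart of the catalytic core. A ring of Sm proteins holds the RNA of each of these snRNPs except U6. SR proteins and hnRNP proteins bind pre-mRNA and steer the choice of splice sites, and CLK kinases phosphorylate SR proteins. Lowering spliceosome activity in mouse embryonic stem cells has been reported to push them toward a totipotent-like state, and DUX is a transcription factor that switches on genes of the 2-cell embryo. The counts are per gene and measure neither splicing nor which isoform was made.

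Each library held between 11784696 and 19136869 gene counts, of which the 37 genes took 0.491% to 1.178%. The lowest share was in the second TRIM24-KO library with DOX, in which 1 gene, CT010467.1, took 30.4% of the gene counts; it took 12.9% in the second TRIM33-KO library with DOX. Counts for Dux (Duxf3 in the annotation) were 0 to 2 in every library without DOX and 20 to 110 in every library with DOX. Trim33 had 156 to 446 counts in the TRIM33-KO libraries and 1116 to 2383 in the WT pLV2 libraries. Trim24 had 2278 and 2123 counts in the TRIM24-KO libraries without DOX, above WT pLV2 line 1 (1461 and 1469) and below line 2 (4036 and 2699). Duxbl1 had 16 and 6 counts in DUXBL-KO and 24 and 6 in WT, in the libraries lacking DOX. With DOX it had 169 and 91 counts in DUXBL-KO, above the 139 and 59 of the same-numbered WT libraries. A count over the whole gene does not show a small deletion, so these libraries are called labelled TRIM24-KO and labelled DUXBL-KO. All 10 embryonic stem cell markers listed had counts in every library. Their summed level was 4739 to 5542 CPM without DOX and 4216 to 5364 CPM with DOX in the pLV2 lines, and lowest in the DOX libraries of WT pLV2 line 2 (4260.0 and 4285) and TRIM33-KO (4347 and 4216). In WT and labelled DUXBL-KO it was 5010 to 6080 CPM without DOX and 4966 to 5944 CPM with DOX. The summed level of 7 markers of 2-cell-like cells was 1.15 to 5.21 CPM (a count divided by its library's effective size) without DOX and 1286 to 7142 CPM with DOX in the pLV2 lines, and 0.243 to 1.76 CPM and 709 to 2096 CPM in WT and labelled DUXBL-KO. Of 19 fibroblast markers, listed because feeder cells were one of the growth conditions, 4 to 8 were at 0 in each library. Lum, Postn and Fap had 0 to 1 counts per library, while others of the list were present in all, such as Thy1 (89 to 414 counts) and Col5a1 (112 to 401). The summed level of the 19 was 41.8 to 70.2 CPM without DOX and 52.4 to 75.9 CPM with DOX in the pLV2 lines, and 39.9 to 48.3 CPM and 47.5 to 57.8 CPM in WT and labelled DUXBL-KO. The part of these marker levels, and of 2-cell-like or other cells, in the results below was not tested.

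WT and labelled DUXBL-KO were scaled and fitted apart from the pLV2 lines, so levels are not on one scale across the 2 sets. Per kilobase of annotated exon, the levels without DOX spanned a wide range among the 37 genes. Hnrnpa1, which binds exonic and intronic silencers, was highest, with a median over 12 libraries of 305 CPM per kb (lowest 216, highest 329). Prpf8, the protein at the heart of the catalytic core, followed with 174 (110.5 to 227), and then Srsf2 with 109.9 (91.5 to 161) and Hnrnpk with 93.8 (86.7 to 128). The lowest was Clk4, a kinase of SR proteins, with 5.65 CPM per kb (2.81 to 6.32), below Snrpc with 10.9 (9.88 to 11.97) and Clk1 with 13.2 (8.75 to 15.6). The ranges of Hnrnpa1 and Prpf8 overlapped, and so did those of Snrpc and Clk1. The proteins of the Sm ring sit in the snRNP in equal number, but their mRNA levels per length had medians from 19.1 CPM per kb for Snrpg (15.1 to 41.1) to 62.7 for Snrpe (36.4 to 76.1), ranges that overlapped. These medians pool the 2 sets, and the order of genes can differ in a single line. The length used is that of all annotated exons of a gene merged, which can exceed that of the mRNA made. It was 6521 bases for Snrpc and 861 for Snrpf, so the order of genes also depends on this length. Genes such as Hnrnpa1, Snrpe, Snrpf, Snrpg and Srsf3 have processed pseudogenes, and how reads that match several places were counted is not given in the sources used here, so their levels are uncertain.

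**Figure D1:**
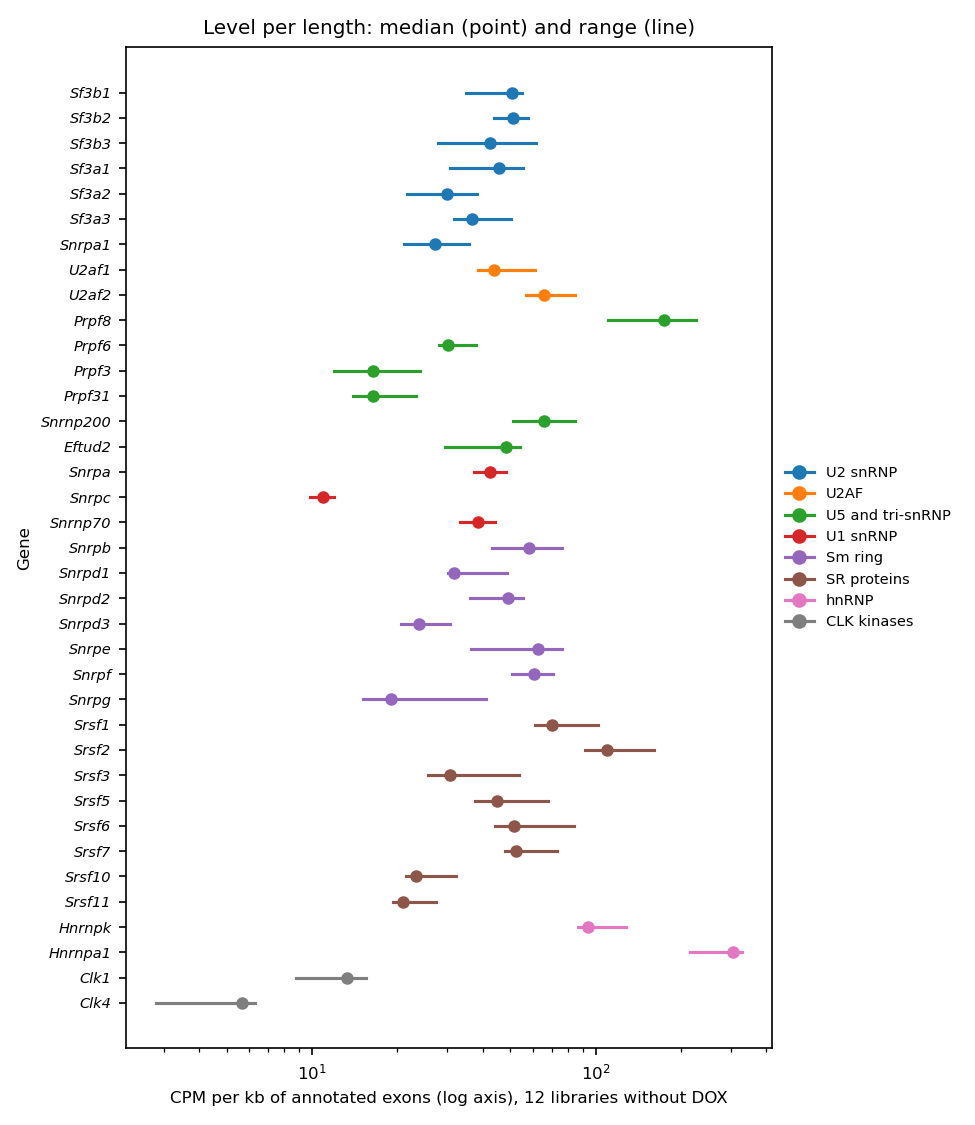
Level of each of the 37 genes without DOX, in CPM per kb of annotated exon on a log axis. Points are medians and lines the range over 12 libraries, coloured by role; Hnrnpa1 (305) and Clk4 (5.65) are the ends of the scale.

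With DOX, Srsf5, Srsf6 and Snrpc rose in each of the 4 pLV2 lines, and most of the 37 genes passed the test in none. Srsf5, an SR protein gene, rose 1.80-fold to 2.25-fold, and the others moved by less. A gene was counted as changed at an adjusted p under 0.05 in edgeR's quasi-likelihood test, adjusted over all genes tested. By that rule, 14 of the 37 genes changed in at least 1 of the 4 lines, 8 upward and 6 downward, none both ways, and 23 changed in no line. The shares of all genes that changed in at least 1 line, in none or in all 4 were not counted. In TRIM33-KO alone 36.6% of all genes changed, so these counts cannot be read as particular to the 37 genes. In WT pLV2 line 1, 4 rose and 0 fell, where 10% of all 18079 genes tested rose and 6.25% fell. In WT pLV2 line 2, 4 rose and 2 fell, where 12.7% of all genes rose and 14% fell (26.8% in either direction). In the libraries labelled TRIM24-KO, 5 rose and 0 fell, where 11.5% of all genes rose and 4.94% fell. In TRIM33-KO, 7 rose and 6 fell, where 16.5% of all genes rose and 20.1% fell. The share of the 37 genes that rose was thus close to that among all genes in every pLV2 line. Their median log2 fold change was 0.01, 0.03, 0.06 and 0.05 in the same order of lines, against -0.03, -0.07, -0.0028 and -0.09 over all genes tested. In bulk samples, fewer cells of a type and less RNA per cell cannot be told apart.

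These counts changed when single libraries were left out, falling in the cases below and rising in others. Leaving out 1 of 2 libraries also weakens the test, and its part in the lost calls was not tested. Without the second DOX library of WT pLV2 line 1 only Srsf5 was called there (1 gene), and without the second library lacking DOX 2 were. Line 2 gave 2 calls without its first DOX library and 3 without its first library lacking DOX. The TRIM24-KO count of 5 became 2 without the second DOX library, 3 without the first library lacking DOX and 2 without the second, and TRIM33-KO gave 7 (6 up, 1 down) in place of 13 without its first DOX library. Without CT010467.1 in the library sizes, Srsf5, Srsf6 and Snrpc were called in the libraries labelled TRIM24-KO (3 genes). With median-of-ratios factors the split was 10 up and 3 down in TRIM33-KO and 5 up and 2 down in WT pLV2 line 2. That scaling also moved the share of upward calls among all genes from 45.05% to 56.66% in TRIM33-KO and from 47.6% to 59.6% in line 2.

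**Figure D2:**
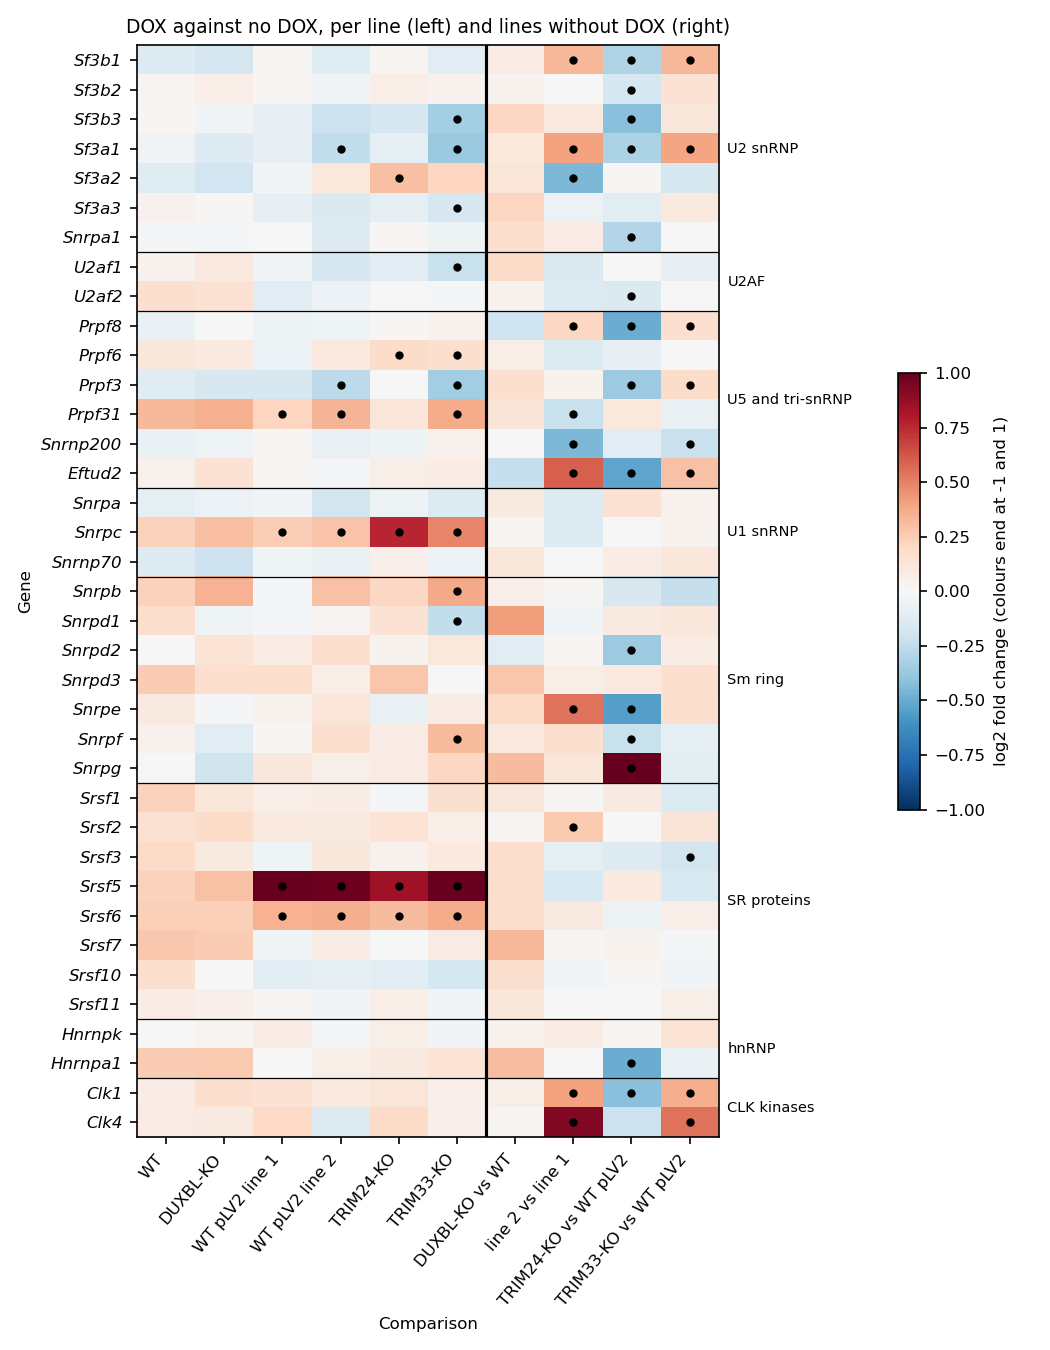
Log2 fold change of each of the 37 genes, grouped by role, for DOX against no DOX in 6 lines (left of the thick line) and for lines without DOX (right). Colours end at -1 and 1 and a black dot marks an adjusted p under 0.05; Srsf5, Srsf6 and Snrpc carry a dot in all 4 pLV2 lines.

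Among the SR proteins, Srsf5 and Srsf6 were the only ones of 8 to pass the test with DOX in any pLV2 line. Srsf5 encodes a small SR protein that is known to shuttle and to act on exon inclusion. Its level in WT pLV2 line 1 was 172 and 186 CPM without DOX and 349 and 364 CPM with DOX. In WT pLV2 line 2 it was 164 and 157 CPM without DOX and 319.8 and 314 CPM with DOX. In the libraries labelled TRIM24-KO it was 192 and 169.8 CPM without DOX and 322 and 329.5 CPM with DOX. In TRIM33-KO it was 149.8 and 154 CPM without DOX and 360.4 and 324 CPM with DOX. Every DOX library of these lines lay above every library without DOX, and the groups did not overlap. The log2 fold change was 1.00 (SE 0.07, adjusted p 1.81e-08) in line 1 and 0.98 (SE 0.07, adjusted p 1.38e-08) in line 2. It was 0.85 (SE 0.07, adjusted p 1.16e-07) in the libraries labelled TRIM24-KO and 1.17 (SE 0.07, adjusted p 1.01e-09) in TRIM33-KO. Each of these 4 calls held in all 10 alternatives run for it, including every left-out library.

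Srsf6, another SR protein that binds exonic enhancers, rose by less and by similar amounts. Its level was 232.5 and 225 CPM without DOX and 292 and 292 CPM with DOX in WT pLV2 line 1, and 262 and 224 CPM against 333 and 292 CPM in line 2. It was 241.5 and 213 CPM against 289 and 277 CPM in the libraries labelled TRIM24-KO, and 238 and 256 CPM against 322 and 318 CPM in TRIM33-KO. No line had an overlap between its DOX libraries and those without. The log2 fold changes were 0.35 (adjusted p 0.00845), 0.36 (0.00417), 0.32 (0.0159) and 0.37 (0.00244), with SEs of 0.08 to 0.09. Left-out libraries ended the Srsf6 call in line 1 (adjusted p up to 0.0566), in line 2 (0.0761) and in the libraries labelled TRIM24-KO (0.246). The other 6 SR genes, Srsf1, Srsf2, Srsf3, Srsf7, Srsf10 and Srsf11, passed the test in no pLV2 line with DOX. Srsf10, a splicing repressor when it loses its phosphates, had the lowest value of the list in TRIM33-KO, -0.18 with an adjusted p of 0.0571.

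In the U1 snRNP, Snrpc rose and the other 2 genes, Snrpa and Snrnp70, passed the test in no line with DOX. Snrpc encodes the U1 zinc-finger protein that steadies the pairing of U1 with the 5′ splice site. Its level was 72.4 and 76.1 CPM without DOX and 86.1 and 90.5 CPM with DOX in WT pLV2 line 1. It was 64.4 and 71.8 CPM against 84.4 and 81.7 CPM in line 2. In the libraries labelled TRIM24-KO, 68.7 and 73.2 CPM stood against 119 and 121 CPM, and in TRIM33-KO 67.8 and 78.0 CPM against 99.3 and 106 CPM. The DOX libraries labelled TRIM24-KO were the highest of all 16 pLV2 libraries. The log2 fold changes were 0.25 (SE 0.08, adjusted p 0.0311), 0.29 (SE 0.08, adjusted p 0.00894), 0.76 (SE 0.08, adjusted p 6.76e-07) and 0.49 (SE 0.07, adjusted p 7.11e-05). In both WT lines the call was lost without some single libraries, at adjusted p up to 0.208 in line 1 and 0.0658 in line 2.

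In the U5 and tri-snRNP, Prpf31 rose in 3 of the 4 pLV2 lines and Prpf3 fell in 2. Both encode proteins of the U4/U6 part of the tri-snRNP. Prpf31 was at 90.6 and 88.6 CPM without DOX and 99.3 and 108.5 CPM with DOX in WT pLV2 line 1, and at 77.6 and 76.1 CPM against 99.1 and 95.3 CPM in line 2. It was at 87.9 and 90.6 CPM against 93.8 and 100.1 CPM in the libraries labelled TRIM24-KO, and at 78.2 and 79.7 CPM against 103 and 101 CPM in TRIM33-KO. The log2 fold changes were 0.21 (adjusted p 0.0206), 0.34 (0.000446), 0.12 (0.223, not passing) and 0.37 (0.000122), with SEs of 0.06. The call in line 1 was lost without the second DOX library (adjusted p 0.252) or the second library lacking DOX (0.0752). Prpf3 was at 93.6 and 108 CPM without DOX and 75.2 and 83.5 CPM with DOX in TRIM33-KO, a log2 fold change of -0.35 (SE 0.07, adjusted p 0.00105; 0.0956 without the first DOX library). In WT pLV2 line 2 it was at 91.8 and 87.8 CPM against 75.2 and 74.7 CPM, or -0.26 (SE 0.07, adjusted p 0.0117). That call was lost in 5 of 10 alternatives, DESeq2 (0.0977) among them. Prpf6, which bridges U5 to U4/U6, rose by 0.19 in the libraries labelled TRIM24-KO (adjusted p 0.0409) and by 0.16 in TRIM33-KO (0.0442). The Prpf6 call held in 2 of 10 alternatives in the former and in 8 of 10 in TRIM33-KO (adjusted p up to 0.417). The U5 core genes Prpf8, Snrnp200 and Eftud2 passed the test with DOX in no line.

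**Figure D3:**
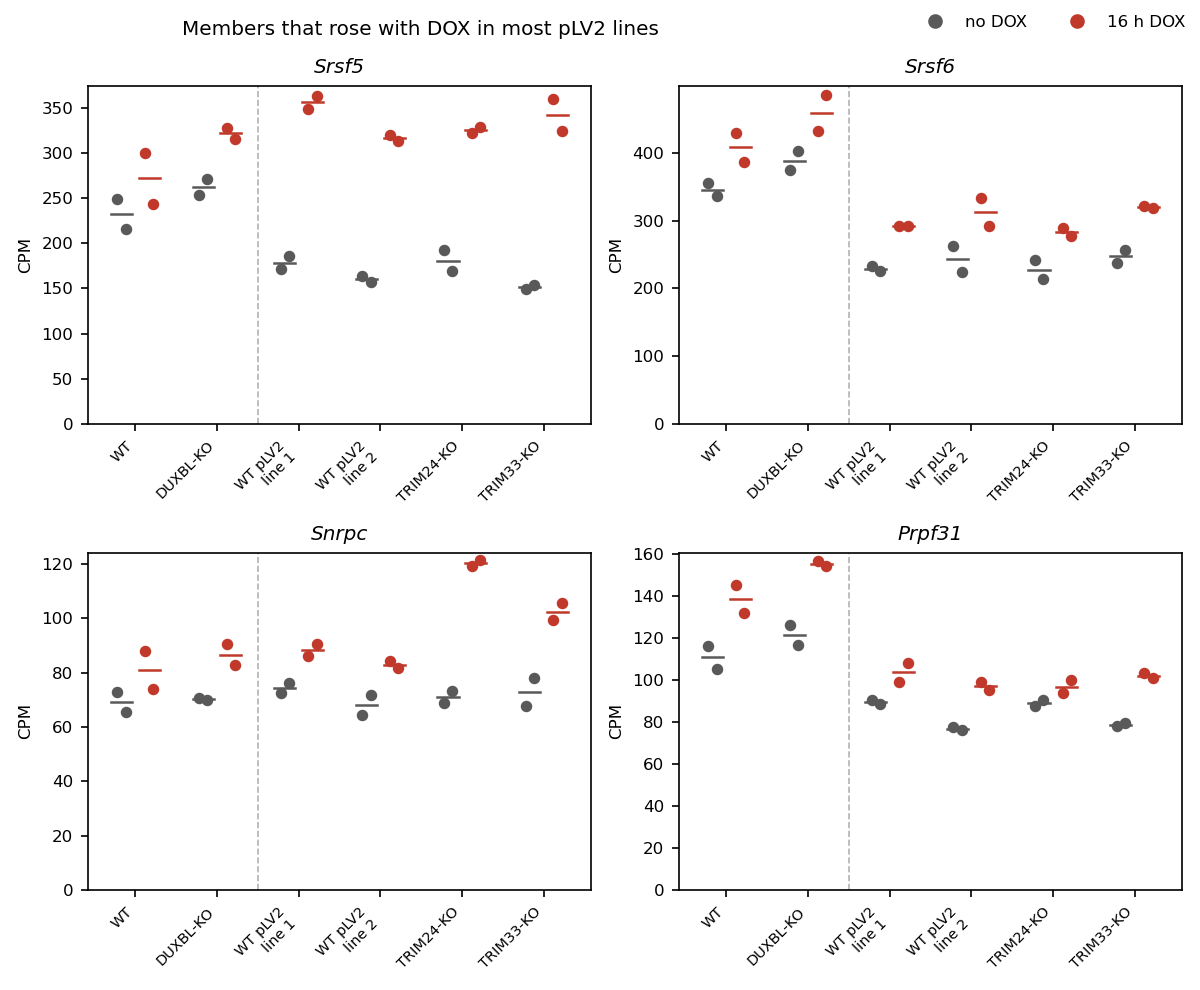
CPM of Srsf5, Srsf6, Snrpc and Prpf31 in each library (points) with group means (short lines), without DOX in grey and after 16 h of DOX in red. The dashed line parts the 2 sets, which were scaled separately; in the pLV2 lines every red point of Srsf5 is at 314 CPM or above and every grey point at 192 CPM or below.

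The stretch of 250 bases before the RefSeq start of these 4 genes (GRCm38.p6, + strand, 5′ to 3′) is shown because each rose with DOX in at least 3 of the 4 pLV2 lines. Mouse DUX is known to bind an inverted pair of half-sites, TGATT and AATCA with any 1 base between them. Capitals mark each single half-site, AATCA or its reverse complement TGATT. The places are chr12:80945249-80945498 for Srsf5, chr2:162931258-162931507 for Srsf6, chr17:27839837-27840086 for Snrpc and chr7:3629735-3629984 for Prpf31.
Srsf5: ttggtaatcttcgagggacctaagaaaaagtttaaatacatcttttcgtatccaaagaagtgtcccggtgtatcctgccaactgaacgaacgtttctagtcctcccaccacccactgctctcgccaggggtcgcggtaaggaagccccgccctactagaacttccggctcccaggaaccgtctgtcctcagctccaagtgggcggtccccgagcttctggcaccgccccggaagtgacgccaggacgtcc
Srsf6: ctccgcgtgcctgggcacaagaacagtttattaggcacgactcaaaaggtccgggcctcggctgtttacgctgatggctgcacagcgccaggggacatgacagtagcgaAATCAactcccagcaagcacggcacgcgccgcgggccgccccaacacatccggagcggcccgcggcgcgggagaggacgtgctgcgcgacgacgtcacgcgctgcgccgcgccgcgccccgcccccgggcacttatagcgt
Snrpc: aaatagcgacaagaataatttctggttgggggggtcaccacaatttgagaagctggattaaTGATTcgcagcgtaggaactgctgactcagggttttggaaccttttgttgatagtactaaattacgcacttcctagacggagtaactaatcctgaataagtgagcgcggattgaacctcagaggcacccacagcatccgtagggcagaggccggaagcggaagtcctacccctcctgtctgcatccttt
Prpf31: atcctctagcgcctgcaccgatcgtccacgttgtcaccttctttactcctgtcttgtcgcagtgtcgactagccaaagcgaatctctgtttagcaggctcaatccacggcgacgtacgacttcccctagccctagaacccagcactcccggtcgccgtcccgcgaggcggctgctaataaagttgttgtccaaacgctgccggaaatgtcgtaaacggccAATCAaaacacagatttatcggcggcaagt
Srsf5 had 0 half-sites in this window, and Srsf6, Snrpc and Prpf31 had 1 each. A half-site on either strand was found before the start in 33.7% of all 32851 RefSeq promoters and in 10 of 37 promoters of the 32 splicing genes with an entry. The full pair, which contains the half-sites, was in 0.0304% of all promoters and in 0 of those 37. The 4 stretches held 17, 35, 10 and 23 CpG dinucleotides in the order shown, against a median of 19 over the 37 promoters and 6 over all. These matches describe letters in the window only.

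The U2 snRNP and U2AF genes that passed the test with DOX fell, apart from Sf3a2. Sf3a1 encodes the SF3a subunit that touches both U1 and U2. It was at 312 and 329 CPM without DOX and 235 and 262 CPM with DOX in TRIM33-KO, a log2 fold change of -0.37 (SE 0.07, adjusted p 0.000366). In WT pLV2 line 2 it was at 288 and 275 CPM against 236 and 239 CPM, or -0.24 (SE 0.07, adjusted p 0.0121; lost in 3 of 10 alternatives, at up to 0.143). Sf3b3, an SF3b scaffold protein, was at 473 and 451 CPM against 359 and 371 CPM in TRIM33-KO, or -0.34 (SE 0.08, adjusted p 0.00228; 0.0657 without the first DOX library). Also in TRIM33-KO, U2af1, the small U2AF subunit that reads the AG at the end of the intron, fell by 0.22 on the log2 scale (adjusted p 0.013) and Sf3a3 fell by 0.17 (0.0436). The call of U2af1 held in 4 of 10 alternatives and that of Sf3a3 in 1 of 10; both were lost with median-of-ratios factors, with which those of Sf3a1 and Sf3b3 held. Sf3a2 rose by 0.30 (SE 0.09, adjusted p 0.029) in the libraries labelled TRIM24-KO, where 5 of 10 alternatives kept the call. Sf3b1, the SF3b subunit that clamps the branch point, Sf3b2, Snrpa1 and U2af2 passed the test in no line with DOX.

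In the Sm ring, 3 of 7 genes passed the test with DOX in TRIM33-KO, 2 upward and 1 downward, where 36.6% of all genes changed, and 0 passed in the other pLV2 lines. The DOX response of TRIM33-KO differed from that of WT pLV2 for 0 of the 7. Snrpb was at 110.0 and 85.4 CPM without DOX and 133 and 120.4 CPM with DOX there, a log2 fold change of 0.38 (SE 0.12, adjusted p 0.017). Snrpf rose by 0.31 (adjusted p 0.00877). Each of these 2 calls was lost in 2 of 10 alternatives, at adjusted p up to 0.198 and 0.0811, and Snrpd1 fell by 0.25 (0.0238; held in 4 of 10 alternatives). The other 4 Sm genes did not pass. Neither hnRNP gene and neither CLK kinase gene passed the test with DOX in a pLV2 line. Their log2 fold changes ran from -0.03 to 0.14 for Hnrnpk and Hnrnpa1, and from -0.13 to 0.20 for Clk1 and Clk4.

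In WT and labelled DUXBL-KO, none of the 37 genes passed the test with DOX in a fit without a block for the replicate number. In WT, 2.93% of all 18060 genes tested changed (2.82% up, 0.105% down), 0 of the 37 passed in edgeR and in DESeq2, and 5 had an unadjusted p under 0.05. In labelled DUXBL-KO, 4.91% of all genes changed (4.5% up, 0.404% down), 0 of the 37 passed in both tools, and 7 had an unadjusted p under 0.05. The median log2 fold change over the 37 genes was 0.08 in WT and 0.07 in labelled DUXBL-KO, against -0.01 and -0.01 over all genes. Srsf5 was at 249 and 216 CPM without DOX and 300.4 and 244 CPM with DOX in WT, groups that overlapped, with a log2 fold change of 0.23 (95% interval -0.06 to 0.51, adjusted p 0.608). In labelled DUXBL-KO it was at 254 and 271 CPM against 328 and 316 CPM, or 0.29 (0.01 to 0.58, adjusted p 0.338). The smallest adjusted p was that of Hnrnpa1 in WT (0.25, adjusted p 0.183) and that of Prpf31 in labelled DUXBL-KO (0.36, 0.13 to 0.58, adjusted p 0.105). Prpf31 in WT had 0.32 (0.10 to 0.55, adjusted p 0.203). With the replicate number as a block, Prpf31 was called in both lines (adjusted p 0.0312 in WT and 0.0128 in labelled DUXBL-KO). What the number stands for was not given in the sources used here. The spread between libraries was wider here, with a biological coefficient of variation of 17.8% against 8.55% in the pLV2 lines. Whether the DOX response differed between these lines and the pLV2 lines was not tested.

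The DOX response itself differed between lines for 1 gene. For Snrpc it was 0.49 higher on the log2 scale (SE 0.09, 95% interval 0.30 to 0.69, adjusted p 0.0247) in the libraries labelled TRIM24-KO than in the mean of both WT pLV2 lines, where 0.437% of all genes differed (0.354% higher, 0.083% lower). The call held in 7 of 20 alternatives, with adjusted p from 0.00851 to 0.219. Among others it was lost without each of the 4 libraries labelled TRIM24-KO in turn (0.154 to 0.219) and without CT010467.1 in the library sizes (0.0665). For Srsf5 the difference from WT was -0.14 (-0.33 to 0.05) in the libraries labelled TRIM24-KO and 0.18 (-0.01 to 0.37) in TRIM33-KO, and neither passed. In TRIM33-KO against WT pLV2, 0 of the 37 genes differed by edgeR and by DESeq2, 4 had an unadjusted p under 0.05, and 0.575% of all genes passed (0.498% higher, 0.0774% lower). Between the 2 WT pLV2 lines 0 differed by either tool, 1 had an unadjusted p under 0.05, and 0.238% of all genes passed (0.183% higher, 0.0553% lower). Between labelled DUXBL-KO and WT 0 differed by either tool, none had such a p, and 0% of all genes passed. These differences reuse the WT pLV2 libraries.

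Without DOX, the WT pLV2 lines already differed from each other. In line 2 against line 1, 8 of the 37 genes were higher and 3 lower, where 18.9% of all genes were higher and 19.3% lower (38.3% in all). Clk4 was at 32.6 and 32.9 CPM in line 2 and at 18.2 and 16.3 CPM in line 1, a log2 fold change of 0.93 (SE 0.10, adjusted p 2.01e-06). Eftud2, the GTPase of the U5 snRNP, was at 437 and 453 CPM against 296.5 and 291.5 CPM, or 0.60 (SE 0.06, adjusted p 8.91e-07). Sf3a1 was at 288 and 275 CPM against 216 and 208 CPM, or 0.41 (SE 0.07, adjusted p 0.000145). Snrnp200, the helicase that unwinds U4 from U6, was lower in line 2, at 423 and 404 CPM against 563 and 565 CPM, or -0.45 (SE 0.06, adjusted p 2.77e-05). Sf3a2 was lower by 0.45 (log2 -0.45, adjusted p 0.000774) and Prpf31 by 0.22 (log2 -0.22, adjusted p 0.00788; lost in 5 of 10 alternatives). The other higher genes were Snrpe, Clk1, Sf3b1, Srsf2 and Prpf8, with log2 fold changes of 0.21 to 0.54. All 11 had no overlap between the libraries of the 2 lines. They had passed a test on these same libraries, and overlap was not counted over all genes.

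Without DOX, 14 of the 37 genes were lower and 1 was higher in the libraries labelled TRIM24-KO than in the mean of both WT pLV2 lines, where 22.5% of all genes were lower and 20.9% higher (43.4% in all). The lower ones were 5 of 7 U2 snRNP genes (Sf3b1, Sf3b2, Sf3b3, Sf3a1, Snrpa1), 3 of 6 U5 and tri-snRNP genes (Prpf8, Prpf3, Eftud2), 3 of 7 Sm genes (Snrpd2, Snrpe, Snrpf), U2af2, Hnrnpa1 and Clk1. The calls of Sf3b2, Snrpf and U2af2 held in only 5, 3 and 2 of 14 alternatives, and each of the others in at least 12. None of the 8 SR genes and 3 U1 genes passed the test. The median log2 fold change over the 37 genes was -0.11, against -0.02 over all genes. All 15 had no overlap between their 2 libraries and the 4 WT libraries. These genes were picked by a test on the same libraries, and the share of all genes without overlap was not counted.

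Hnrnpa1 was at 681 and 692 CPM in the libraries labelled TRIM24-KO. The WT pLV2 libraries had 956 and 979 CPM (line 1) and 972 and 970.3 CPM (line 2). Its log2 fold change was -0.50 (SE 0.06, adjusted p 4.39e-06). Prpf8 was at 825 and 894 CPM, against 1123 and 1127 CPM in line 1 and 1307 and 1294 CPM in line 2, or -0.49 (SE 0.05, adjusted p 1.26e-06). Eftud2 was at 248 and 254 CPM, against 296.5 and 291.5 CPM in line 1 and 437 and 453 CPM in line 2, or -0.53 (SE 0.05, adjusted p 4.35e-07). For Hnrnpa1 the 2 WT lines gave the same difference, -0.50 and -0.50, while for Eftud2 they gave -0.23 against line 1 and -0.83 against line 2. The gene that was higher was Snrpg, the smallest Sm protein's gene, at 64.5 and 50.9 CPM against 26.9 and 28.0 CPM in line 1 and 29.0 and 30.9 CPM in line 2. Its log2 fold change was 1.01 (SE 0.13, adjusted p 9.95e-06), and it stayed high with DOX, at 71.6 and 49.4 CPM. Against line 1 alone 1 gene was higher and 12 lower (34% of all genes in either direction), and against line 2 alone 4 were higher and 14 lower (48.1% of all genes). The genes that passed in the same direction against each line alone were Snrpg (higher) and 9 lower ones: Prpf3, Prpf8, Eftud2, Sf3b2, Clk1, Snrpa1, Sf3b3, Snrpd2 and Hnrnpa1. The share of all genes that passed against both in this way was not counted, so this number cannot be set against all genes. With median-of-ratios factors, 3 were higher and 11 lower, while the split over all genes went from 3778 higher and 4072 lower to 4058 higher and 3647 lower.

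In TRIM33-KO without DOX the result depended on the WT line it was set against. Against the mean of both lines 7 of the 37 genes were higher and 2 lower, where 12.8% of all genes were higher and 11.1% lower (23.9% in all). Against line 1 alone 10 were higher and 5 lower (40.9% of all genes in either direction), and against line 2 alone 0 were higher and 0 lower (1.52% of all genes). Clk4 was at 33.8 and 35.3 CPM in TRIM33-KO, 18.2 and 16.3 CPM in line 1 and 32.6 and 32.9 CPM in line 2. Its log2 fold change was 0.54 (SE 0.08, adjusted p 0.000149) against the mean of both lines, 1.00 against line 1 and 0.08 against line 2 (adjusted p 0.823). Sf3a1 was at 312 and 329 CPM, with 0.39 (SE 0.06, adjusted p 0.000122) against the mean, 0.60 against line 1 and 0.19 against line 2 (adjusted p 0.227). Clk1 was at 119 and 126 CPM, against 80.0 and 86.1 CPM in line 1 and 114 and 105 CPM in line 2, with 0.36 (SE 0.06, adjusted p 0.0005), 0.56 and 0.16 (adjusted p 0.395) in the same order. Snrnp200 was at 427 and 401 CPM, with -0.22 (SE 0.05, adjusted p 0.00639) against the mean, -0.45 against line 1 and 0.00 against line 2. Srsf3, at 225 and 202.5 CPM, was lower than the mean by little more than the threshold asks (-0.18, adjusted p 0.0453). Eftud2 and Snrnp200 overlapped with line 2 although they passed the test against the mean. Without the second TRIM33-KO library 5 genes were called. The comparisons of both knockouts and of the 2 WT lines share the 4 WT pLV2 libraries.

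**Figure D4:**
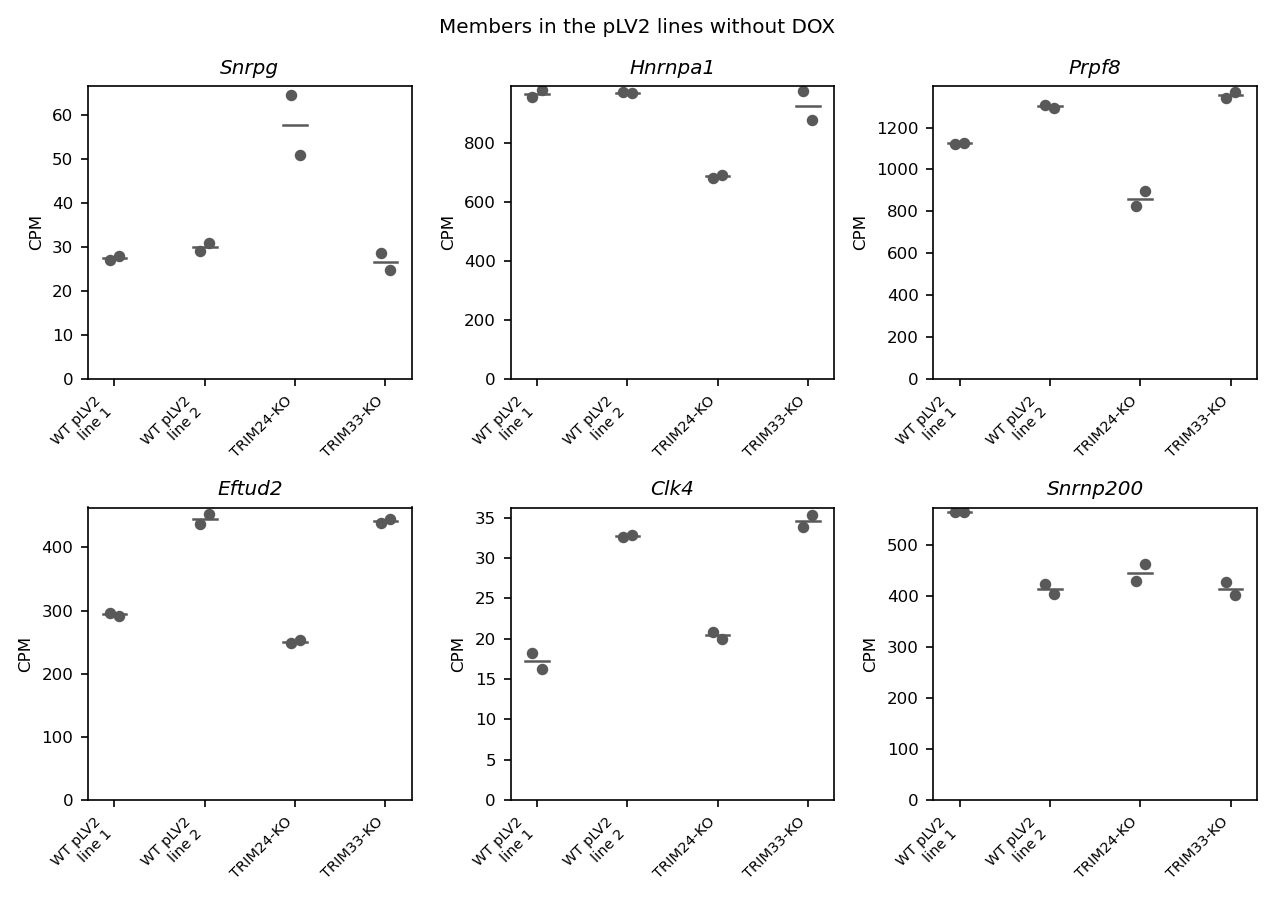
CPM of Snrpg, Hnrnpa1, Prpf8, Eftud2, Clk4 and Snrnp200 in the pLV2 lines without DOX, with 2 libraries (points) and their mean (line) per line. Snrpg is highest and Hnrnpa1 and Prpf8 are lowest in TRIM24-KO, while for Eftud2, Clk4 and Snrnp200 the TRIM33-KO libraries sit beside WT pLV2 line 2 and apart from line 1.

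Between labelled DUXBL-KO and WT without DOX, 0 of the 37 genes passed in edgeR and in DESeq2, 3 had an unadjusted p under 0.05, and 0.0388% of all genes passed. The log2 fold changes ran from -0.23 to 0.41 with a median of 0.11, against 0.0 over all genes, with 33 above 0 and 4 below. The 95% intervals reached from -0.62 to 0.84 at their widest ends.

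Beyond the 37 genes, 145 other genes of splicing were listed, and all were tested. With DOX, 21 rose and 6 fell in line 1 of WT pLV2, and 25 rose and 15 fell in line 2. In the libraries labelled TRIM24-KO 23 rose and 4 fell, and in TRIM33-KO 29 rose and 22 fell. In the same order, 10%, 12.7%, 11.5% and 16.5% of all genes rose and 6.25%, 14%, 4.94% and 20.1% fell. Their medians, 0.01, 0.03, 0.04 and -0.03, stood beside the all-gene medians given above. The 3 rising genes with the smallest p were the same in every pLV2 line: Cwc22, Aqr and Rbm25. Cwc22 (chr2:77881159-77946375) encodes the factor that brings the exon junction complex to the spliceosome. It was at 58.3 and 60.5 CPM without DOX and 490.1 and 589.6 CPM with DOX in line 1, and at 57.8 and 60.1 CPM against 696 and 672.5 CPM in line 2. In the libraries labelled TRIM24-KO, 49.1 and 55.1 CPM stood against 624 and 936 CPM, and in TRIM33-KO 59.2 and 66.9 CPM against 1153 and 1051 CPM. The log2 fold changes were 3.18, 3.54, 3.90 and 4.13 (SE 0.15 each; adjusted p at most 4.63e-11), or 9.09-fold to 17.5-fold. Cwc22 lies in a segment that is present in extra copies in some mice, so counts for single copies are uncertain.

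Aqr (chr2:114101170-114187024) encodes an RNA helicase that joins the spliceosome at the intron. It was at 242 and 225.5 CPM without DOX and 502 and 563.5 CPM with DOX in line 1, and at 209 and 211 CPM against 696 and 672 CPM in line 2. It was at 344 and 353 CPM against 927 and 1150.0 CPM in the libraries labelled TRIM24-KO, and at 207 and 220.1 CPM against 926 and 928 CPM in TRIM33-KO. The log2 fold changes were 1.19, 1.70, 1.57 and 2.12 in line 1, line 2, labelled TRIM24-KO and TRIM33-KO. Rbm25 (chr12:83631236-83683123), an RNA-binding protein that acts with U1, had 0.92, 1.33, 1.44 and 1.58, from 260.0 to 332 CPM without DOX to 612 to 945 CPM with DOX. No DOX library overlapped with one lacking DOX for these 3 genes in the pLV2 lines, and all of their calls held in the 10 alternatives run in each line.

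In the other direction Srsf4, an SR protein gene outside the 37, fell by 0.27, 0.34 and 0.52 on the log2 scale in line 1, line 2 and TRIM33-KO. Its edgeR adjusted p was 0.00912, 0.000903 and 1.37e-05 in that order. Ppil1, a cyclophilin of the active spliceosome, fell by 0.28, 0.24 and 0.49 in line 1, labelled TRIM24-KO and TRIM33-KO (adjusted p 0.0195, 0.0488 and 0.000153). Puf60, which acts beside U2AF at weak 3′ splice sites, fell by 0.26 and 0.31 in lines 1 and 2 (adjusted p 0.00944 and 0.00215). Luc7l2, a U1 partner, fell by 0.33 in line 2 (0.00211) and 0.48 in TRIM33-KO (5.87e-05). Hnrnpul1 and Luc7l fell by 0.22 and 0.20 in the libraries labelled TRIM24-KO (adjusted p 0.0308 and 0.0352). How these falling genes fared in the alternatives is not given here.

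In the set without pLV2, 3 of the 145 genes rose and 0 fell in WT, and 5 rose and 1 fell in labelled DUXBL-KO. Among all genes 2.82% rose in WT and 4.5% in labelled DUXBL-KO. The names given here were chosen after their values were seen. Cwc22 was at 77.1 and 68.9 CPM without DOX and 348.5 and 202 CPM with DOX in WT (log2 fold change 1.91, adjusted p 0.00769). In labelled DUXBL-KO it was at 74.9 and 79.8 CPM against 528 and 523.5 CPM (2.76, adjusted p 0.00192). Aqr rose by 0.73 (adjusted p 0.0376) in WT and 1.11 (0.00436) in labelled DUXBL-KO. Rbm25 passed the test in neither, with 0.73 (adjusted p 0.113) in WT and 0.71 (0.0903) in labelled DUXBL-KO. In WT the Cwc22 and Aqr calls were lost in some alternatives, at adjusted p up to 0.0825 and 0.23. Bclaf1 and Srpk1 rose and Fubp1 fell in labelled DUXBL-KO, by 0.48, 0.39 and -0.66. The DOX response of TRIM33-KO was larger than that of WT pLV2 for 3 of the 145 genes and smaller for 0, where 0.498% of all genes were higher and 0.0774% lower. The differences were, for Snw1, 0.72 (adjusted p 0.00412), for Aqr, 0.67 (0.00629), and for Rbm25, 0.46 (0.0428). Against WT pLV2 line 1 alone the differences were 1.02, 0.93 and 0.66, and against line 2 alone 0.42 (adjusted p 0.92), 0.41 (0.92) and 0.25 (1.0), so none of the 3 passed against line 2. The Rbm25 call was also lost without each of the 12 libraries in turn (adjusted p 0.0517 to 0.211), and the Aqr call without the first TRIM33-KO library lacking DOX (0.0644). The summed 2-cell-like markers with DOX were 1286 and 1578 CPM in line 1, 4966 and 3703 CPM in line 2, 1439 and 2162 CPM in the libraries labelled TRIM24-KO, and 7142 and 6332 CPM in TRIM33-KO. TRIM33-KO was thus highest in these markers too, and their part in the 3 differences was not tested.

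**Figure D5:**
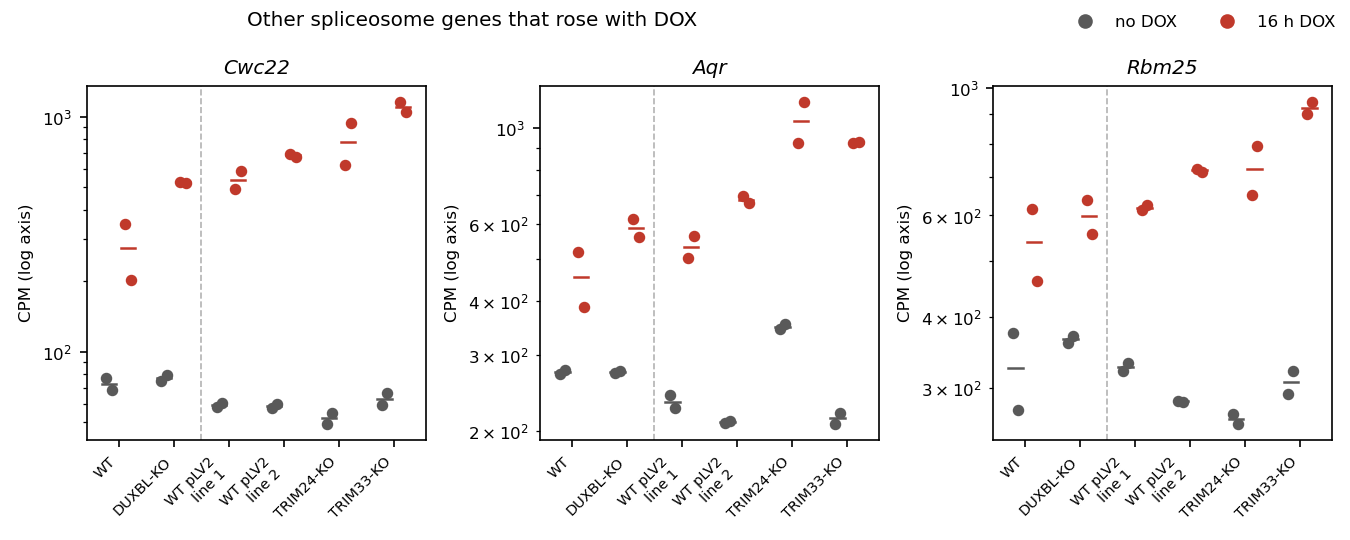
CPM on a log axis of Cwc22, Aqr and Rbm25 in each library (points) with group means (short lines), without DOX in grey and after 16 h of DOX in red; the dashed line parts the 2 sets, scaled separately. In every line the red points lie above the grey ones, and Cwc22 in TRIM33-KO goes from 59.2 and 66.9 to 1153 and 1051 CPM.

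Without DOX, 23 of the 145 genes were higher and 40 lower in the libraries labelled TRIM24-KO than in WT pLV2. In TRIM33-KO 31 were higher and 13 lower, in line 2 against line 1 31 were higher and 32 lower, and in labelled DUXBL-KO against WT 0 passed. Over all genes, 20.9% were higher and 22.5% lower in labelled TRIM24-KO, 12.8% and 11.1% in TRIM33-KO, and 18.9% and 19.3% in line 2 against line 1.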

How the data were processed

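RNA-seq libraries (rRNA-depleted, strand-specific kit, paired 75 bp reads, per the labels' protocols) were used as raw counts per gene, which the authors deposited as 1 table per library. The submitters' processing notes name bcl2fastq 2.20.0, cutadapt 1.18, STAR 2.7.6a and mm10; the counting tool is not given in the sources used here. Groups follow the sample titles: in 8 pLV2 libraries the treatment tag says otherwise, and Dux counts follow the titles. IDs were matched to GENCODE M21 (54435 with their version, 792 without, 260 unmatched); repeat rows were left out.

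The 37 genes, the lists and the tests were chosen with earlier results of these data known. The 8 WT and DUXBL-KO libraries and the 16 pLV2 libraries were fitted apart (filterByExpr; TMM factors; 1 mean per group; edgeR 4.0.16 quasi-likelihood test, 2-sided, in R 4.3.3), with Benjamini-Hochberg adjustment over 18060 and 18079 genes per comparison. CPM use effective library sizes. The reference for the TRIM knockouts was the mean of both WT pLV2 lines. Given in full were, per comparison, up to 3 genes that rose and 3 that fell, those of smallest p, and likewise, for the other splicing genes, with DOX in each pLV2 line. Alternatives were median-of-ratios (RLE) factors, DESeq2 1.42.0, no filter, no CT010467.1, a fit of the compared groups alone, a block for the replicate number, each library left out, and each WT line alone. The fits were tested on simulated data in which the added changes were larger than most of those reported here. No simulated library stood apart through 1 gene, so small changes and such libraries were not covered. Replicate pairs differed beyond sampling noise. Promoters come from RefSeq (GRCm38.p6). The values of 1 of the other splicing genes are not reported here.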

Additional observations from a re-analysis of the deposited data

Results flagged for a closer look

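The DOX response of Snrpc was 0.49 higher on the log2 scale in the libraries labelled TRIM24-KO than in the mean of both WT pLV2 lines (SE 0.09, edgeR adjusted p 0.0247). It stands here because it is a difference between lines under the same treatment that passed a test of the difference itself, alone among the 37 genes and 4 such comparisons. All 4 libraries labelled TRIM24-KO take part in it, and 1 of them is the DOX library in which CT010467.1 took 30.4% of the gene counts. Without that library the difference was 0.42 (adjusted p 0.219).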

How the results depend on the processing

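Of 64 calls on single genes, recomputed under 746 alternatives in all, 604 kept their direction and side of the threshold, 140 kept their direction only and 2 changed sign. Both of the last were TRIM33-KO without DOX against WT pLV2 line 2 alone, with -0.01 for Eftud2 (-0.0092) and 0.0005 for Snrnp200. Counts of called genes that moved by over 1.5 times were as follows. In TRIM33-KO against WT pLV2 without DOX, 9 became 15 against line 1 alone and 0 against line 2 alone. With DOX in WT pLV2 line 1, 4 became 7 with only the compared groups in the fit. With DOX in labelled TRIM24-KO, 5 became 3 without CT010467.1. The single DOX response that differed (Snrpc) became 0 with RLE factors, without CT010467.1, with only the compared groups and against either WT line alone; the cause was not tested.

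Leaving out 1 library at a time, counts ranged from 1 to 3 for DOX in WT pLV2 line 1, 2 to 7 in line 2, 2 to 4 in labelled TRIM24-KO and 7 to 14 in TRIM33-KO. Without DOX they ranged from 12 to 14 for labelled TRIM24-KO, 5 to 12 for TRIM33-KO and 9 to 11 for line 2 against line 1. They ranged from 0 to 1 for the DOX response of labelled TRIM24-KO. A lone library left in a group is assumed to vary like the other groups.

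The replicate number as a block gave 1 call in WT and 1 in labelled DUXBL-KO in place of 0, Prpf31 in both (adjusted p 0.0312 and 0.0128). It gave 4, 8, 5 and 16 calls with DOX in the pLV2 lines (in place of 4, 6, 5 and 13). Deviations of same-numbered libraries correlated at 0.289 to 0.636 in the set without pLV2 and at -0.058 to 0.246 in the pLV2 set. With 2 libraries per group, this does not show that the numbers pair them. Depth limits Clk4 most, with 198 counts in its lowest library.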
